A study of Fragaria x ananassa with 6 samples.

Results

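In floral buds of cultivated strawberry (Fragaria × ananassa), 145 of 34797 gene models (0.417%) lay on one side of the control in FaPRE1-OX samples 1 and 2 and on the other side in FaPRE1-OX sample 3. Of these reversed gene models, 97 were below the control in the first 2 samples and above it in the third, and 48 were above it in the first 2 and below it in the third. They were chosen from the measured ratios themselves. A gene model was kept if at least 1 of its spots was well above background in both channels on all 3 arrays, its log2 ratio of FaPRE1-OX over control was 1 or more from 0 on arrays 1 and 2 in one direction, and 0.5 or more from 0 on array 3 in the other. The ratio was taken from the scanner software's processed signals, less the median of the array, and averaged over the spots of the gene model. Everything said of these ratios and of the levels in the same samples is therefore a description of the chosen genes, and no test was read from it.

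FaPRE1-OX samples were buds of plants transformed with the pK7WG2-FaPRE1 construct, carried by the AGL0 strain of Agrobacterium tumefaciens, and were recorded as elongated. Control samples were buds of plants that carried the empty vector and looked normal. All plants were kept first in a growth chamber and then in a greenhouse. There were 3 samples in each group, each from RNA of independent buds, and sample 1, 2 or 3 of one group shared array 1, 2 or 3 with the sample of that number of the other group. FaPRE1-OX was in Cy3 on arrays 1 and 3 and in Cy5 on array 2, so samples 1 and 3 carried the same dye and sample 2 the other. The labels do not say whether the 3 FaPRE1-OX samples came from separate transgenic lines, and the titles of these samples carry the token PRE3 where the other labels have FaPRE1. A p-value here measures no more than how these samples vary, and that variation may be technical. No marker of a bud cell type was among the gene symbols, so the labelled tissue was not checked against markers.

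FaPRE1 belongs to the PRE proteins, small helix-loop-helix proteins that lack the basic region with which related transcription factors hold DNA. In Arabidopsis they bind other helix-loop-helix proteins and promote cell elongation downstream of gibberellin and brassinosteroid. The files give most features only as a gene model identifier and do not pair these with names, so known functions are given below only for features that carry a gene symbol.

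FaPRE1-OX 3 stood apart from the other samples of its group over the whole array. Over 19594 gene models well above background on all arrays, the median absolute difference in log2 level was 0.261 between FaPRE1-OX 1 and 3 and 0.269 between FaPRE1-OX 2 and 3, against 0.076 between FaPRE1-OX 1 and 2. Between pairs of controls it ran from 0.08 to 0.129. A difference of 1 or more separated FaPRE1-OX 1 from 3 for 7.33% of these gene models and FaPRE1-OX 1 from 2 for 0.219%. In Cy3, spots well above background made up 57.7% of all in FaPRE1-OX 3, against 63% in FaPRE1-OX 1 and 62.8% in control 2. In Cy5 they made up 63.9% in control 3, against 67.2% in FaPRE1-OX 2 and 67.4% in control 1. Array 3 thus had the lowest share in both dyes, in its control as well as in FaPRE1-OX 3. No spot was saturated on any array (0 spots).

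The construct's own gene was not reversed. FaPRE1 had log2 levels of 8.59, 8.74 and 8.04 in samples 1, 2 and 3 of FaPRE1-OX, against 6.09, 6.64 and 6.37 in those of the control, and the groups did not overlap. FaPRE1-OX 3 was the lowest of its group and still above every control. The fitted difference was 2.09 ± 0.23 (SE, n = 3) on the log2 scale, with an adjusted p of 0.065 in limma with the dye term and 0.00822 without it. On array 3 alone the log2 ratio was 1.67. Its signal was well above background in only 4 of 6 samples, and the size of the difference turned on the background correction. From processed signals it was 5.39 (adjusted p = 0.0257 in limma), with ratios of 5.33, 5.97 and 4.28 on arrays 1, 2 and 3.

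The reversed gene models that were low in FaPRE1-OX 1 and 2 lay well under the control there. Their median ratio was -1.88 on array 1 (from -5.70 to -1.15) and -1.73 on array 2 (from -5.66 to -1.01). On array 3 it was 0.78, from 0.50 to 2.60. In 35 of the 97 both of the first ratios were 2 or more below 0, and on array 3 the ratio reached 1 in 29 and 2 in 3. Array 3 was at least as far from the control as the mean of arrays 1 and 2 in 8 of the 97. The rule asked for 1 or more on arrays 1 and 2 but only 0.5 on array 3. These thresholds favour a smaller departure on array 3, so nothing was read from that count.

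The reversed gene models that were high in FaPRE1-OX 1 and 2 lay less far from the control there than the first class did. Their median was 1.32 on array 1 (from 1.01 to 3.41) and 1.47 on array 2 (from 1.01 to 3.47), and -0.89 on array 3 (from -2.52 to -0.51). Both of the first ratios reached 2 in 7 of the 48. On array 3 the ratio was 1 or more below 0 in 20 and 2 or more below it in 5, and in 8 array 3 was at least as far from the control as the mean of the other arrays.

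**Figure D1:**
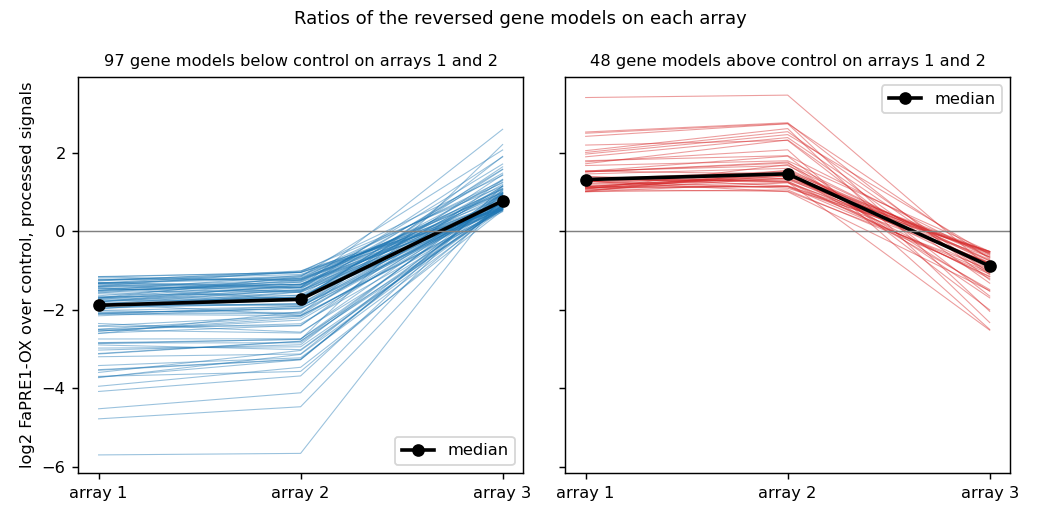
Log2 ratio of FaPRE1-OX over control from processed signals (vertical axis) on arrays 1, 2 and 3 for the 97 reversed gene models below the control on arrays 1 and 2 (left) and the 48 above it (right). Each thin line is a gene model and the black line is the median, which crosses 0 between array 2 and array 3 on both sides, at -1.73 and 0.78 on the left and 1.47 and -0.89 on the right.

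Arrays 1 and 2 gave nearly the same ratios for these genes although the dyes were exchanged between them. The median absolute difference between them was 0.16 for the genes low in FaPRE1-OX 1 and 2 and 0.23 for those high there, with highest values of 0.59 and 0.63. Across genes the ratios of arrays 1 and 2 correlated at r = 0.98 (97 gene models) and 0.92 (48 gene models). The mean of arrays 1 and 2 and the ratio of array 3 correlated at r = 0.09 and -0.30. These points share their arrays and controls and were chosen by the same ratios, and genes are not independent replicates.

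At the edge of the thresholds the ratios ran on without a break. The gene models just inside the threshold of array 3 had ratios there of 0.50 and 0.52, and those just outside 0.50 (rounded, under the threshold) and 0.49. For the other direction the values were -0.51 and -0.51 inside and -0.49 and -0.46 outside. On arrays 1 and 2 the ratio nearer to 0 was -1.01 and -1.02 just inside and -0.997 and -0.977 just outside, and in the other direction 1.01 and 1.01 inside and 0.997 and 0.992 outside.

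Reversal was the far end of a wider spread on array 3. Of 1902 gene models 1 or more below the control on arrays 1 and 2, 969 (50.9%) were also 1 or more below it on array 3, 395 (20.8%) were 0.5 to 1 below it, 441 (23.2%) lay within 0.5 of it, and 97 (5.1%) were the reversed ones. Of 1195 gene models 1 or more above it on arrays 1 and 2, 403 (33.7%) were 1 or more above it on array 3, 347 (29%) were 0.5 to 1 above it, 397 (33.2%) lay within 0.5 and 48 (4.02%) were reversed. Over all 19594 gene models above background, 14.6% were 0.5 or more above the control on array 3 and 24.3% were 0.5 or more below it.

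**Figure D2:**
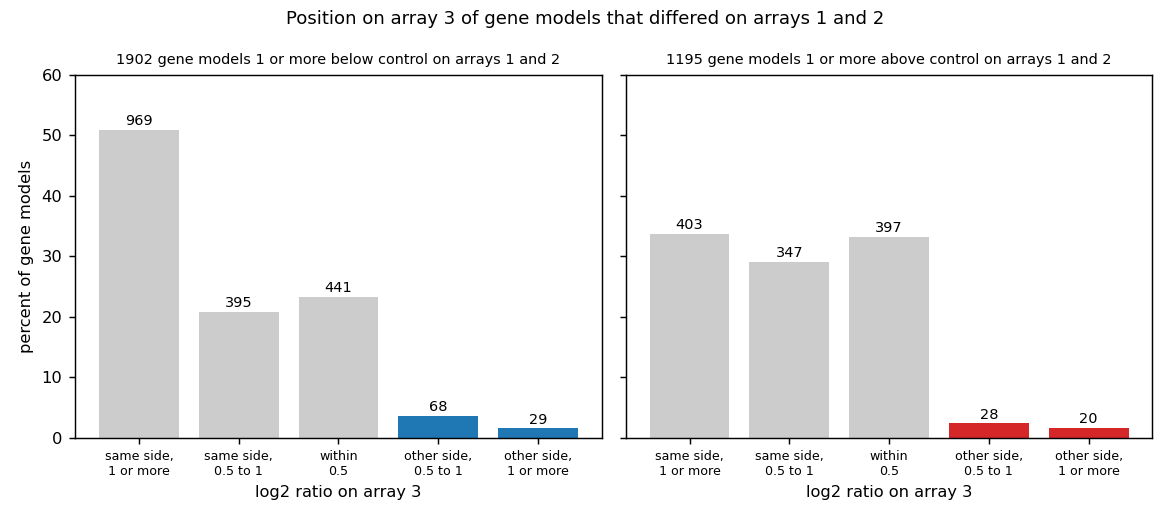
Percent of gene models (vertical axis) by their log2 ratio on array 3, for 1902 gene models 1 or more below the control on arrays 1 and 2 (left) and 1195 above it (right), with the number of gene models over each bar. The coloured bars are the reversed gene models, 68 and 29 on the left and 28 and 20 on the right, and the tallest bar on each side is that of the gene models 1 or more on the same side on all arrays.

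**Figure D3:**
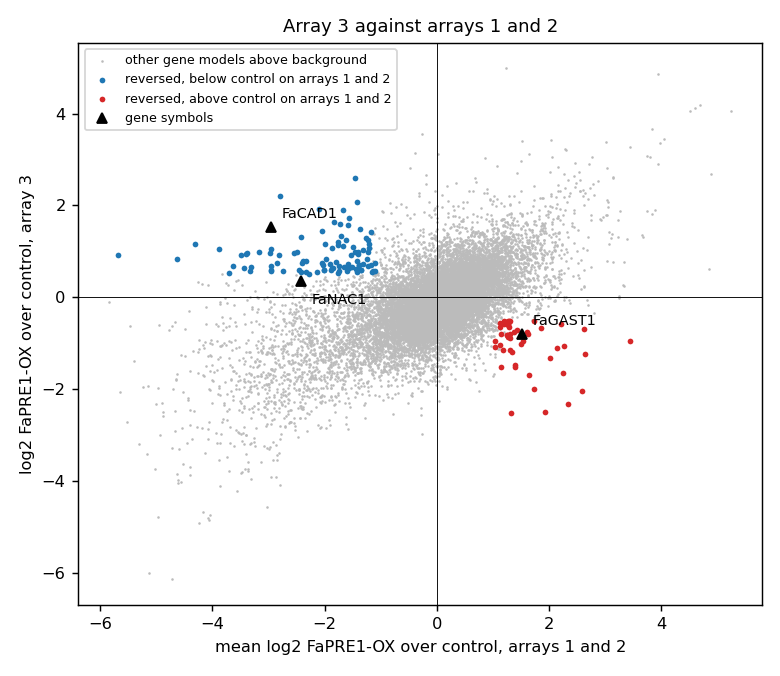
Log2 ratio of FaPRE1-OX over control on array 3 (vertical axis) against the mean on arrays 1 and 2 (horizontal axis) for 19594 gene models well above background, with the reversed ones in colour and 3 gene symbols as triangles. The cloud runs along the rising diagonal, and the reversed gene models lie in the upper left and lower right corners with FaCAD1 and FaGAST1 beside them and FaNAC1 just under the upper left group.

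At the median, the levels of the single samples placed the reversal in FaPRE1-OX 3 and not in its control. These levels are log2 signals after background correction, loess within each array and scaling of average intensity between arrays. For the 97 gene models low in FaPRE1-OX 1 and 2 the median level was 7.54, 7.50 and 10.36 in FaPRE1-OX 1, 2 and 3 but 9.63, 9.55 and 9.55 in controls 1, 2 and 3. For the 48 gene models high there it was 9.80, 9.79 and 7.60 in FaPRE1-OX 1, 2 and 3 but 8.50, 8.55 and 8.39 in the controls. At these medians the controls were level with one another in both classes, and FaPRE1-OX 3 lay beyond them on the side away from FaPRE1-OX 1 and 2. In some gene models the third control departed as well. For gene20642, which had the widest gap, the level was 10.148 in FaPRE1-OX 3 and 10.135, 10.046 and 9.208 in controls 1, 2 and 3. In buds, less RNA of a gene per cell and fewer cells that express it cannot be told apart.

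Gene by gene, the level in FaPRE1-OX 3 exceeded the mean of FaPRE1-OX 1 and 2 by a median of 2.23 (from 0.41 to 4.94) in the first class, higher in 97 of 97. The third control differed from the mean of controls 1 and 2 by a median of -0.08 (from -0.88 to 0.85), and by under 0.5 in 90 of 97. That control was below this mean in 69 and above it in 28. In the second class the median was -1.69 in FaPRE1-OX 3 (from -4.09 to -0.61), lower in 48 of 48, and -0.06 in the third control (from -0.57 to 0.24), with 47 of 48 within 0.5. Over all gene models above background the medians were -0.01 in FaPRE1-OX 3 and -0.05 in the third control. FaPRE1-OX 1 and 2 differed from each other by at most 0.31 in the first class and 0.20 in the second.

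Both FaPRE1-OX 1 and 2 were below every control and FaPRE1-OX 3 above every control in 96 of the 97, an order found in 5.68% of all 23388 genes with a level in every sample. The opposite order held in 47 of the 48 and in 7.16% of those genes. The gene models had been chosen for this order, so nothing was read from these counts. The range of the 3 controls exceeded 0.5 in 8 of the 97 and in 1 of the 48.

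**Figure D4:**
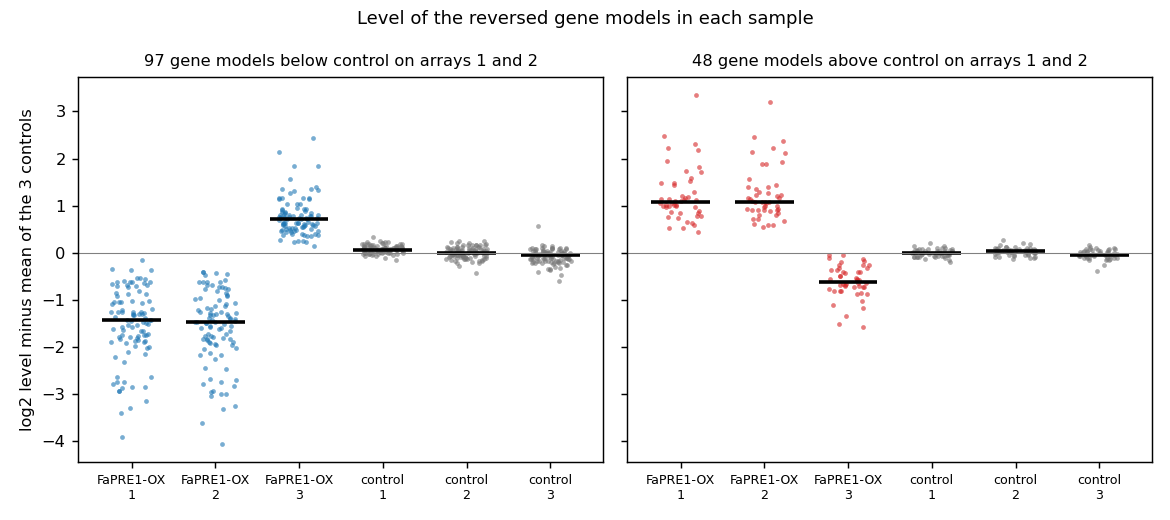
Log2 level minus the mean of the 3 controls (vertical axis) in each sample, FaPRE1-OX 1 to 3 on the left of each panel in colour and controls 1 to 3 on the right in grey, for the 97 (left panel) and 48 (right panel) reversed gene models. Each point is a gene model and each black bar a median. The median of FaPRE1-OX 3 lies across 0 from those of FaPRE1-OX 1 and 2, while the medians of the controls stay near 0.

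At the median, gene models that kept their direction on all 3 arrays shifted the same way in FaPRE1-OX 3, by less. The amount depended on the normalization. The 969 that were 1 or more below the control throughout had a median level of 8.05, 8.01 and 8.75 in FaPRE1-OX 1, 2 and 3 but 10.28, 10.25 and 10.26 in the controls, so that FaPRE1-OX 3 was offset by a median of 0.55 from FaPRE1-OX 1 and 2. It was the higher in 874 of the 969, by 1 or more in either direction in 252. The 403 that were 1 or more above it throughout had 8.76, 8.79 and 8.66 in FaPRE1-OX 1, 2 and 3 but 7.40, 7.52 and 7.43 in the controls, with a median offset of -0.19, lower in 270 of the 403. On loess ratios the median gap between array 3 and the mean of arrays 1 and 2 was 0.57 in the 969 and -0.10 in the 403. It was 0.53 and -0.23 from processed signals, and 0.09 and -0.50 after median centring. Over all gene models above background it was 0.03, -0.16 and -0.41 in the same order of settings. These sets were also cut from the ratios, so the contrast with the reversed ones is fixed by the rule and is given only for its size.

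Among the gene models low in FaPRE1-OX 1 and 2, gene18732 and gene06735 had the widest gaps between array 3 and the other arrays with every spot above background. Each had only 1 spot, so no repeat spot stands behind their values. The log2 level of gene18732 was 6.58, 6.48 and 10.65 in FaPRE1-OX 1, 2 and 3 but 9.63, 9.41 and 9.5 in controls 1, 2 and 3. It was 7.97-fold lower than the control over arrays 1 and 2 and 2.22-fold higher on array 3. These folds come from the loess ratios, in which the offset shrinks dim signals, and the processed signals that chose the genes gave it log2 ratios of -4.52, -4.11 and 1.16. For gene06735 the levels were 7.32, 7.17 and 12.16 in FaPRE1-OX 1, 2 and 3 but 11.29, 11.19 and 11.21 in the controls, which gives 15.9-fold lower on the first 2 arrays and 1.94-fold higher on the third. Its processed-signal ratios were -4.78, -4.47 and 0.84. In both, all 3 controls lay between the values of FaPRE1-OX 1 and 2 and that of FaPRE1-OX 3. The widest gap of all, 6.59, belonged to a gene model with a spot not well above background.

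Among those high in FaPRE1-OX 1 and 2, the widest gaps were those of gene06965, with 2 spots, and gene28519, with only 1. The log2 level of gene06965 was 11.04, 11.22 and 7.58 in FaPRE1-OX 1, 2 and 3 but 9.10, 9.03 and 9.17 in controls 1, 2 and 3, or 4.18-fold higher on arrays 1 and 2 and 3.01-fold lower on array 3, with processed-signal ratios of 2.06, 2.62 and -2.32. For gene28519 it was 10.74, 10.74 and 7.34 in FaPRE1-OX 1, 2 and 3 but 8.51, 8.63 and 8.41 in the controls, or 4.50-fold higher and then 2.10-fold lower. Its processed-signal ratios were 2.42, 2.74 and -2.04, so on array 3 the processed signals put it further below the control than that fold. Here too all 3 controls lay between FaPRE1-OX 3 and the other 2 FaPRE1-OX samples.

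Of 45 gene symbols on the array, 33 were well above background on all arrays and 2 met the thresholds of reversal, FaCAD1 and FaGAST1. FaCAD1 is a cinnamyl alcohol dehydrogenase, which makes the alcohols that are joined into lignin. Its log2 level was 7.89, 7.70 and 11.89 in FaPRE1-OX 1, 2 and 3 but 10.43, 10.40 and 10.35 in controls 1, 2 and 3. The transcript was 6.16-fold lower than the control in the first 2 samples and 2.91-fold higher in the third, and the spread of the FaPRE1-OX group (9.16 ± 2.37, SD, n = 3) was far wider than that of the controls (10.40 ± 0.04). The processed signals gave log2 ratios of -2.99, -2.92 and 1.52.

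FaGAST1 belongs to a family of small cysteine-rich proteins whose transcripts respond to gibberellin and several of which act in cell elongation. Its log2 level was 13.45, 13.58 and 11.00 in FaPRE1-OX 1, 2 and 3 but 12.12, 12.16 and 11.67 in controls 1, 2 and 3. It was 2.59-fold higher than the control over arrays 1 and 2 and 1.59-fold lower on array 3, and its processed-signal ratios were 1.37, 1.65 and -0.80. The third control was also the lowest of its group. Besides these, 1 feature that carries neither an identifier nor a symbol of this kind, met the same thresholds.

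**Figure D5:**
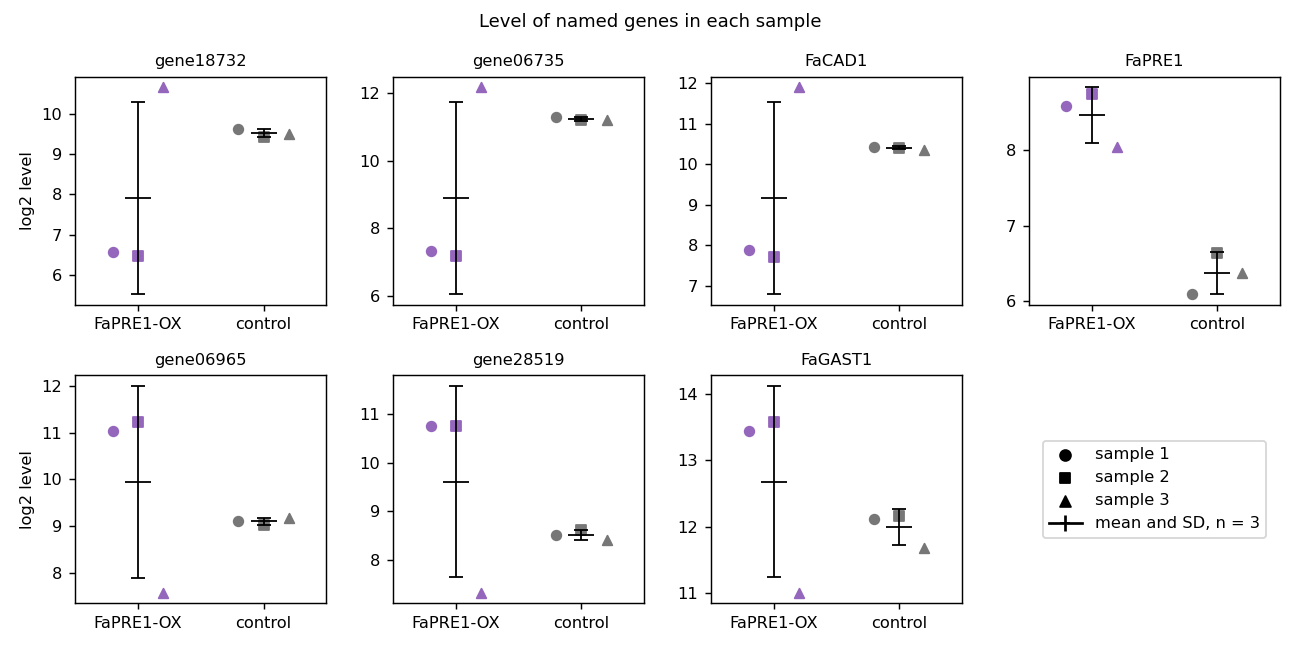
Log2 level (vertical axes, each with its own range) of 4 reversed gene models, FaCAD1, FaGAST1 and FaPRE1, with FaPRE1-OX on the left and control on the right of each panel. Symbols mark samples 1, 2 and 3 and black bars the mean and SD (n = 3); FaPRE1-OX 3 lies across the controls from FaPRE1-OX 1 and 2 in every panel except that of FaPRE1.

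Other symbols of the same pathways did not meet the thresholds. Their values are given on the scale of the rule, log2 ratios from processed signals on arrays 1, 2 and 3. The only other phenylpropanoid symbol, FaFenilCBER, whose name reads as a phenylcoumaran benzylic ether reductase of lignan synthesis, had 1.01, -0.2 and -1.0. Among the hormone symbols, FaIAA33, of the Aux/IAA repressors of auxin response, had -1.83, -1.67 and -0.51. It thus stayed below the control on array 3. FaGRAS1, of the GRAS family that includes the gibberellin-regulated DELLA repressors, had -0.14, -0.55 and 0.79. FaNCED3, whose enzyme cleaves carotenoids in abscisic acid synthesis, was not well above background on all arrays. With the dye term, limma called 0 of the 2 phenylpropanoid and 0 of the 3 tested hormone symbols, beside 0% of all genes tested, so these counts say nothing of the symbols.

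Among the 33 symbols well above background on all arrays, 9 were 1 or more below the control on arrays 1 and 2, and 2 of these were above it on array 3. Beside FaCAD1 this was FaNAC1, a NAC transcription factor, named here after its values were seen. On the scale of processed signals it had ratios of -2.36, -2.48 and 0.36 and missed the threshold of 0.5 on array 3. The other 7 stayed below the control on array 3, from -3.27 for FaSKP1, a subunit of SCF ubiquitin ligases, to -0.43 for Famalonyltransf, whose name is that of a malonyltransferase. Of the 3 symbols of these 33 that were 1 or more above the control on arrays 1 and 2, only FaGAST1 was below it on array 3. FaDFR1C, for dihydroflavonol reductase of anthocyanin synthesis, had 2.25 there, and FaPLB, for a pectate lyase of the cell wall, had 1.95. Of the 11 flavonoid symbols above background 0 met the thresholds, beside 0.74% of all gene models above background.

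The reversed gene models ranged from dim to bright but did not reach the brightest. The mean log2 control level ran from 6.78 to 15.54 in the class low in FaPRE1-OX 1 and 2, with a median of 9.54, and from 6.70 to 12.71 in the class high there, with a median of 8.48, against a range of 6.37 to 18.41 and a median of 8.73 over all gene models above background. In the first class 42.3% lay among the 25% of gene models with the highest control level, and 50.2% of the 969 that stayed below on all arrays did so. In the second class 16.7% lay there, against 9.43% of the 403 that stayed above. The 25% with the lowest control level held 20.6% of the first class and 27.1% of the second, against 3.82% and 53.1% of the gene models that kept their direction. The filter asked for signal above background in both channels, so a gene below the control on an array needed a brighter control to pass. The contrast is thus partly fixed by the rule, and nothing was read from it.

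Repeat spots were averaged by the rule, so their agreement in side within an array is partly fixed by the choice of genes and is given as a description. In the first class 66 gene models had 2 spots and 29 had only 1. For those with 2 spots, both were above the control on array 3 in 65 of 66 and both 0.5 or more above it in 57. In the second class 35 had 2 spots and 13 had only 1. For those with 2 spots, both were below the control in 35 of 35 and both past the threshold in 30. The median difference between the spots on array 3 was 0.075 and 0.155, and the highest 1.86 and 1.38. Every spot was well above background in both channels on all arrays for 93 of the 97 and 42 of the 48. The 252 spots of the reversed gene models were spread over the array, with 21% to 27.8% at each of top left, top right, bottom left and bottom right, and 0 were flagged as outliers. Most rested on a single probe sequence, 95 of 97 and 48 of 48, so that repeat spots measure the printing and hybridisation and not a second part of the transcript.

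Some reversed gene models had consecutive identifiers. There were 7 such pairs, 14 gene models in all, and in 7 of 7 both members lay in the same class, 10 gene models in the first and 4 in the second. The ratio on array 3 differed within a pair by 0.002 to 0.70, with a median of 0.18. Of the 145, 125 had a neighbouring identifier among the gene models above background. Identifiers a little further apart could differ in class, as gene06602 lay in the first and gene06605 in the second. How often other neighbouring gene models share a direction was not counted, so nothing was read from the pairs. The files give no positions in the genome, and whether the probes of such a pair recognise the same transcript was not tested.

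The fitted difference between the groups was small beside these ratios, since the third array cancels part of the other 2. In limma with the dye term its median was -0.87 in the class low in FaPRE1-OX 1 and 2 and 0.65 in the class high there, with median SE of 0.56 and 0.41, against -0.02 over all 23391 genes tested. This fit called 0 of the 145 at an adjusted p under 0.05, beside 0% of all genes tested, and 0 had an unadjusted p under 0.05, as 6759 of all genes did. Without the dye term it called 0 of the 145, beside 22.6% of all genes tested, and 1 had an unadjusted p under 0.05. On arrays 1 and 2 alone, without FaPRE1-OX 3 and its control and without a dye term, limma called 145 of 145, beside 59.5% of all genes tested, with median differences of -1.47 and 1.07. The rule used the same contrast, so these counts describe how the genes were chosen.

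The number of reversed gene models depended on how the arrays were normalized. With background correction and loess in place of the processed signals, 98 gene models met the thresholds, 81 and 17 in the 2 classes, and 88 of them were among the 145. The medians of the 145 were then -1.49, -1.50 and 0.73 on arrays 1, 2 and 3 in the first class and 1.07, 1.11 and -0.52 in the second, and all 97 and 48 kept the sign of each array. With centring on the median in place of loess only 22 gene models met them, 7 and 15, of which 16 were among the 145. That scaling left a shift over all gene models above background of -0.33, 0.52 and -0.32 on arrays 1, 2 and 3, whose sign followed the dye of FaPRE1-OX. The signs of all 3 arrays were kept in 90 of 97 and 47 of 48 under it. With no centring of the processed signals there were 171, 126 and 45, of which 132 were shared.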

How the data were processed

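Scanner output of 3 arrays of 2 colours was used, for 3 FaPRE1-OX and 3 control samples of floral buds. The authors deposited spot and background intensity and processed signals (linear intensity) of the Cy3 and Cy5 channels. The software was Agilent Feature Extraction, whose version is 10.7 in the labels and 10.7.3.1 in the file headers. Further steps of the authors are not given in the sources used here. All 3 arrays shared 1 slide and 1 scan.

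Groups, arrays and dyes were taken from the labels. The gene models and lists were chosen with earlier results of these data known. Named gene models are the 2 per class with the widest gap among those with every spot above background, beside each symbol that met the thresholds and FaPRE1. Ratios of the rule used 61657 spots per array that were not controls.

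Levels and fits used R 4.3.3 and limma 3.58.1, with normexp (offset 50), loess within arrays and Aquantile between them. The ratio was fitted with a dye term (1 residual degree of freedom), with lmFit and eBayes, two-sided, and adjusted by Benjamini-Hochberg over 23391 genes well above background in at least 3 samples. In this fit array 2 weighs as much as arrays 1 and 3 together. Normexp with an offset shrinks the ratios of dim probes. The labels pair same-numbered samples by array, and after removal of group means they correlated at 0.168, 0.178 and 0.135, so the pairing is held in the ratio. The fit was run on simulated ratios with known changes, with and without the dye term. No array stood apart in that simulation, so it does not show what the fit can detect in these data. The number of arrays limits precision. Summaries and figures used Python 3.11.15, pandas 2.3.3 and matplotlib 3.10.9. Names, probe sequences and positions of the gene models were not analysed here.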

Additional observations from a re-analysis of the deposited data

How the results depend on the processing

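The count of 145 reversed gene models became 49 with 1 or more required on array 3, 240 with 0.25, 42 with 2 or more on arrays 1 and 2, 284 with no filter on background and 22 with normexp and median centring. The cause of the last was not tested. The other settings tried gave 98 to 171.

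Limma called 0 genes over all tested with the dye term, 5280 without it, 4241 with no replicate block, 1423 from processed signals, 1002 after median centring and 885 at an offset of 16. Leaving out 1 replicate, which also removes the dye term, gave 0 to 13927 calls, the highest without replicate 3, to be set beside the 5280 without the dye term. Of the reversed gene models it called 0 under each of these settings, also without the replicate block, except that leaving out 1 replicate gave 0 to 145, the highest without replicate 3. The median fitted difference kept its sign in both classes, from -1.47 to -0.29 and from 0.26 to 1.07 when 1 replicate was left out.

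The median gap between array 3 and the mean of arrays 1 and 2, on loess ratios, was 2.36 in the class low in FaPRE1-OX 1 and 2. It was 2.80 from processed signals, 1.75 after median centring, 2.58 at an offset of 16, and 2.31 to 2.38 when replicate 1 or 2 was left out. In the class high there it was -1.59, and in the same order -2.35, -2.07, -1.79 and -1.68 to -1.60. The median offset of FaPRE1-OX 3 was 2.86, 1.94 and 2.47 in the first class and -2.24, -1.94 and -1.89 in the second under these settings, 2.85 and -2.25 with scaling of each channel to its 75th percentile, and 2.20 to 2.25 and -1.70 to -1.68 without replicate 1 or 2. The offset of the third control stayed within 0.2 of 0. It was 0.18 in the first class with median centring, and 0.04, 0.16 and 0.03 in the second with processed signals, median centring and percentile scaling. Without replicate 1 or 2 it was -0.13 to -0.06 and -0.08 to -0.02.

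The adjusted p of FaPRE1 was under 0.05 without the dye term (difference 2.09), with no replicate block (2.09), processed signals (5.39), median centring (2.25), an offset of 16 (2.74) and without replicate 3 (2.30), and ran from 8.61e-10 to 0.114 over all settings. The 6 other named genes kept their sign in all settings and passed 0.05 only without replicate 3. Each group holds 3 samples and 1 of the 3 FaPRE1-OX samples carries the reversal, so it has no replicate.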
